A study of Mus musculus with 24 samples.

Results

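Hsp90aa1 encodes the stress-inducible cytosolic Hsp90, and Stip1, Fkbp4, Chordc1 and Cacybp encode proteins that work with it or bind its co-chaperone complexes. These 5 genes were followed in heat-shocked mouse embryos through every array probe whose platform annotation gave exactly 1 symbol equal to 1 of their names, which found 5 of the 3838 genes measured by slide type 1 and 3 of the 4075 measured by slide type 2. Together they had 18 probes. Slide type 1 held 15 of them among 7680 probes, with 7 for Hsp90aa1, 3 for Fkbp4, 2 each for Stip1 and Chordc1 and 1 for Cacybp. Slide type 2 held 3 of them among 7680 other probes, with 1 each for Hsp90aa1, Chordc1 and Cacybp. A further probe of slide type 2 carried Hsp90aa1 together with another symbol and was not used, and Stip1 and Fkbp4 were not analysed on slide type 2.

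Hsp90 is an ATP-driven chaperone that takes partly folded kinases, steroid receptors and other clients from Hsp70 and brings them to an active form. Co-chaperones set the pace of that cycle: Stip1, also called Hop, bridges Hsp70 and Hsp90; Fkbp4, the immunophilin FKBP52, joins steroid receptor complexes late in the cycle; Chordc1, a CHORD-domain protein also called morgana, binds Hsp90 through its CS domain; and Cacybp, the calcyclin-binding protein, carries a related domain and also bridges Siah and Skp1 in a ubiquitin ligase complex. When heat unfolds proteins, heat shock factor 1 is freed from chaperones and binds repeated GAA and TTC units in the promoters of chaperone genes.

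The study compared, in 2 channels of the same arrays, total RNA of cultured mouse embryos that were heated to 43 °C for 15 min, put back to 37 °C and taken 1 h later with total RNA of control embryos kept at 37 °C and given no heat. No mutant, drug or transgene enters these groups, and the sources used here do not give strain or embryo age. The 24 arrays came from 3 numbered treatments, each on 2 slide types. In the forward order channel 1 held the heat-shocked RNA and in the reverse order channel 2 did; each order was run on an array with and an array without a suffix in its slide code, so a treatment had 4 arrays per slide type. The labels do not say that the treatments used separate litters, nor how many embryos were pooled. The p-values thus speak only for these 3 treatments. Except where own spreads are named, p-values and intervals use limma's spread. That spread pools a gene's or probe's own spread with that of all others on the slide type.

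Values are the authors' log ratios. From every array its own probe median was subtracted, and arrays of the reverse order had their sign turned. Neither log base nor numerator is stated: with base 2 a value of 1 unit is 2-fold, with a natural log 2.72-fold. The positive side therefore means heat shock over control only if the authors divided channel 1 by channel 2. With the other numerator every value keeps its size and changes side. On slide type 2 arrays of the same channel order correlated as low as r = −0.337 over all probes, and as low as −0.637 between channel orders of the same treatment; on slide type 1 these lowest values were 0.294 and −0.0309. After both orders were averaged, the treatments correlated over probes at 0.704 to 0.801 (slide type 1) and 0.823 to 0.904 (slide type 2). The direction stays unsettled for these reasons, and sides are given in place of rises and falls.

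Log ratios carry no level, so the embryo's tissues could not be checked by the level of their markers. Among marker genes, 0 of 3 measured for yolk sac endoderm and 0 of 2 for trophoblast passed limma's test on slide type 1 (medians 0.01 and −0.08; 0 of these 5 passed at an unadjusted 0.05 threshold). There 1 of 2 neural genes passed, on the negative side, as 5.65% of all genes did (Tubb3, −0.21 ± 0.04, SD, n = 3 treatments, limma adjusted p = 0.0359). Of 3 erythroid genes on slide type 2, 0 passed by limma (1 at an unadjusted 0.05 threshold), and the 1 measured trophoblast gene, Krt18, passed on the negative side, as 31.9% of all genes did (−0.19 ± 0.14, limma adjusted p = 0.0212). No heart muscle marker was measured with a symbol of its own. The part of tissue makeup in the results was not tested, and in such mixed RNA fewer cells of a type and less RNA per cell cannot be told apart.

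Hsp90aa1 had the largest mean of the 5 genes and stood on the positive side on every array. On slide type 1 its 7 probes averaged 0.89 in treatment 1, 1.57 in treatment 2 and 1.08 in treatment 3. Over the 12 arrays the lowest value was 0.77, the median 1.16 and the highest 1.88, so no array came near 0. The mean was 1.18 ± 0.35 (SD, n = 3 treatments, limma adjusted p = 9.88e-05, 95% interval 0.94 to 1.42), which is 2.27-fold if the log has base 2 and 3.26-fold if it is natural. It ranked 8 from the positive end among 3838 genes, of which 5.73% passed on that side.

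The separate probe of slide type 2 gave nearly the same size. Its values were 0.86, 1.69 and 0.87 in treatments 1, 2 and 3, with 0.37 as the lowest array, 0.88 as the median and 2.67 as the highest. The mean was 1.14 ± 0.48 (n = 3 treatments, limma adjusted p = 9.54e-07 in the fit of genes, 95% interval 0.90 to 1.38). It ranked 18 from the positive end among 4075 genes, of which 18.5% passed on that side. The interval uses limma's pooled spread, and the value of each treatment lay outside it. The same treatments differed between slide types by −0.04 ± 0.17 on average (slide type 2 minus slide type 1, positive in 1 of 3 treatments), which is less than the spread between treatments.

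All 7 Hsp90aa1 probes of slide type 1 passed limma's test on the positive side, where 11.0% of all probes did so, and their 84 values on single arrays were all above 0, from 0.52 to 2.03. The probe of slide type 2 also passed (limma adjusted p = 7.44e-05 in the fit of probes), where 28.9% of all probes passed on that side. The 7 probes carry the same gene and share arrays, so they count as repeat readings and not as replicates. Probe 771 read lowest, at 0.90 ± 0.14, and probe 5333 highest, at 1.31 ± 0.43. In treatment 2, forward order, probe 771 read 1.83 on the array without the suffix and 0.71 on that with it, where the other 6 probes ran from 1.48 to 2.03. That array held the widest gap between the 7 probes, 1.32 units, against 0.229 on the array with the narrowest. Across the 12 arrays, pairs of the 7 probes correlated with a median r of 0.874 (lowest 0.418, highest 0.984). Ranks of the 7 probes ran from 29 to 100 among the 7680.

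**Figure D1:**
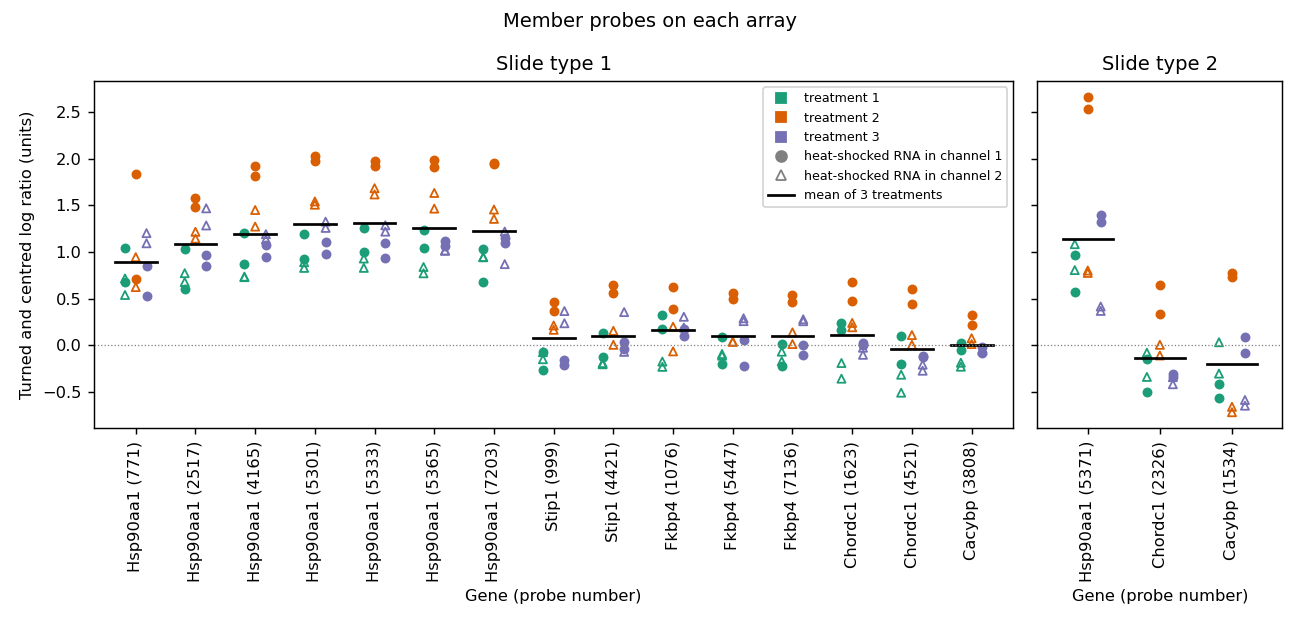
Turned and centred log ratios (units, y axis) of the 18 member probes (x axis, probe number in brackets) on each array; colours are the 3 treatments, filled circles forward-order arrays, open triangles reverse-order arrays, and black bars the mean of 3 treatments. The 7 Hsp90aa1 probes of slide type 1 lie between 0.52 and 2.03, and the 8 co-chaperone probes there between −0.51 and 0.68, on both sides of 0.

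The Hsp90aa1 value differed more between channel orders on slide type 2 than on slide type 1, though on neither did that difference pass its test. On slide type 1 the values in treatments 1, 2 and 3 were 0.98, 1.79 and 0.98 in the forward order and 0.80, 1.35 and 1.18 in the reverse order. The probe of slide type 2 had 0.77, 2.60 and 1.35 in the forward order and 0.94, 0.79 and 0.39 in the reverse order. The largest reading of the gene, in treatment 2 of slide type 2, came from the forward order alone. The difference between orders there averaged 0.87 units and did not pass limma's test (adjusted p = 0.481). Taken alone, reverse-order arrays gave 0.71 on slide type 2. That value lost the call in the fit of genes (limma adjusted p = 0.0777) and kept it in that of probes (limma adjusted p = 0.0454). Of the 15 member probes of slide type 1 and the 3 of slide type 2, 0 passed the test of that difference by limma (2 and 0 at an unadjusted 0.05 threshold), against 22.2% and 0.0130% of all probes.

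Tested against a difference of 0.5 units in place of 0, Hsp90aa1 still passed on slide type 1 (limma adjusted p = 0.0118) and on slide type 2 (limma adjusted p = 0.00183), where 20 genes of 3838 and 43 of 4075 did. With each gene's own spread and no pooling across genes it passed on neither (limma adjusted p = 0.245 and 0.154). In that setting only 2 genes of slide type 1 and 7 of slide type 2 passed at all.

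**Figure D2:**
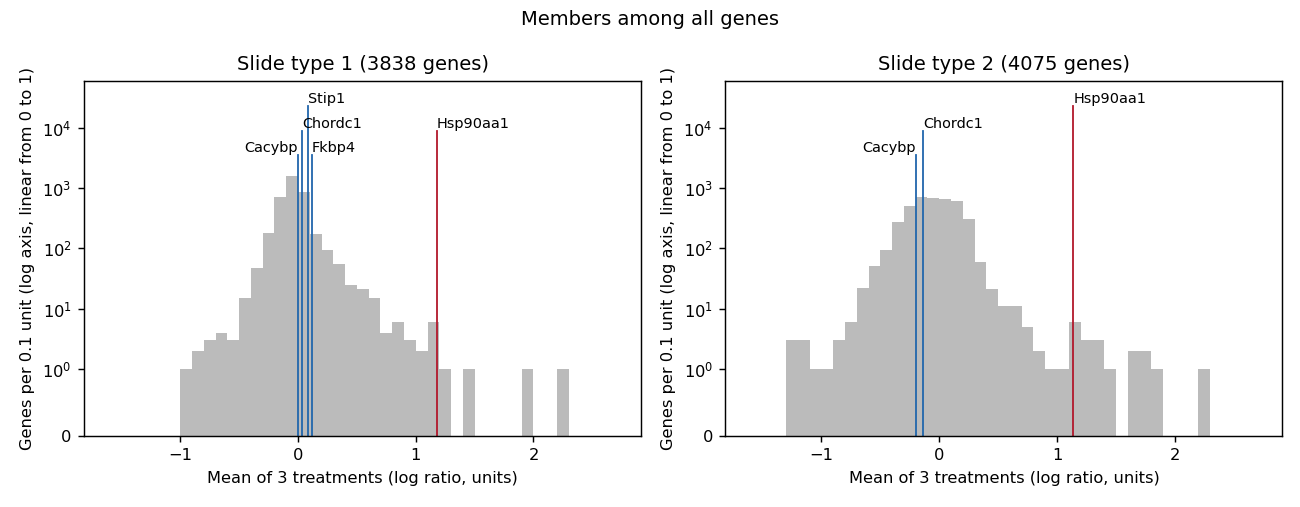
Number of genes (y axis, logarithmic above 1) in bins of 0.1 unit of the mean log ratio over 3 treatments (x axis) on each slide type, with member genes marked by lines whose height has no meaning. Hsp90aa1 stands at 1.18 and 1.14, in the sparse positive tail, and the co-chaperones stand between −0.20 and 0.12, within the bulk of genes.

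The 4 co-chaperones lay close to 0. On slide type 1 none of the 4 passed, with gene means from −0.00 for Cacybp to 0.12 for Fkbp4. These means were higher than those of 66.2% (Cacybp) to 90.5% (Fkbp4) of genes there. On slide type 2 the means of Cacybp and Chordc1 were higher than those of 23.9% and 34.3% of genes. The only call was Cacybp on slide type 2, on the negative side. Of their 8 probes on slide type 1, 0 passed as positive, as 11.0% of all probes did, and 0 as negative, as 5.09% did, by limma at an adjusted p of 0.05. At an unadjusted 0.05 threshold 1 of the 8 passed, probe 1076 of Fkbp4. Of their 2 probes on slide type 2, 1 passed on the negative side, where 24.4% of all probes did.

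The promoters of the co-chaperones were read for heat shock element units from RefSeq windows of GRCm38.p6 that run from 250 bases before to 50 after the gene's start; 4 of the 5 genes had a window, and Hsp90aa1 had none. A run was counted where GAA and TTC alternate with 2 bases between them, beginning with either unit (GAANNTTC or TTCNNGAA, lengthened by further units), which reads the same on both strands. The 2 promoters with a match are shown, since they differ in the length of the run although neither gene passed limma's test on slide type 1. Matches are in capitals, 5′ to 3′ on the gene's strand.
Chordc1, positions −120 to 20, chr9:18292147-18292286, plus strand: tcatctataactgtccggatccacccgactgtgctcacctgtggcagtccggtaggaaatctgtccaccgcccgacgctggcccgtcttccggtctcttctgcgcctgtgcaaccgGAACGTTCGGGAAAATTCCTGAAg
Fkbp4, positions −160 to −1, chr6:128438657-128438816, minus strand: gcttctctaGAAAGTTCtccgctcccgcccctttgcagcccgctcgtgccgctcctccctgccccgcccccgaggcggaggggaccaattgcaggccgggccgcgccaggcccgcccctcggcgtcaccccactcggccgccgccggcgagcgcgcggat

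Chordc1 carried an unbroken run of 5 units from −4 to 19 across its start, and a further match of 2 units at 34 to 41. Of 32851 windows, 15.1% held a run of at least 2 units, 0.603% one of at least 3, and 1 window (0.00304%), that of Chordc1, one of 5 or more. Fkbp4 held 1 match of 2 units at −151 to −144. The windows of Stip1 and Cacybp held none, which says only that these letters are not there. Chordc1, with the longest run, had 0.03 and −0.14 on the 2 slide types, and the probes do not show whether any factor was bound.

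Stip1, the bridge between Hsp70 and Hsp90, had −0.12, 0.32 and 0.06 in treatments 1, 2 and 3 on slide type 1. Its 12 arrays ran from −0.20 over a median of 0.06 to 0.51, and 7 of them were above 0. The mean of 0.09 ± 0.22 (n = 3 treatments, limma adjusted p = 0.565) was smaller than its spread. Its 2 probes gave 0.07 and 0.10.

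Fkbp4, the steroid receptor immunophilin, had −0.06, 0.28 and 0.13. Its arrays ran from −0.15 over a median of 0.08 to 0.57, with 8 of 12 above 0. The mean was 0.12 ± 0.17 (n = 3 treatments, limma adjusted p = 0.352, 95% interval −0.04 to 0.28), higher than that of 90.5% of genes on the slide type. Probe 1076 gave 0.17 ± 0.13 and the other 2 gave 0.10 and 0.09. Probe 1076 passed only in the forward order taken alone (0.29, limma adjusted p = 0.0284) and without centring (0.47, limma adjusted p = 0.03). In these settings 1262 and 1210 of all 7680 probes passed on the positive side. The interval of the gene value ends below 0.5 units, so a change of the size seen in Hsp90aa1 lies outside it. That holds for limma's pooled spread and the main centring only. Without centring the gene mean was 0.42 (limma adjusted p = 0.0953).

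Chordc1 had −0.14, 0.34 and −0.11 on slide type 1 and −0.27, 0.22 and −0.35 on slide type 2. Both slide types thus had treatment 2 above 0 and the others below it. The means were 0.03 ± 0.27 (n = 3 treatments, limma adjusted p = 0.88) and −0.14 ± 0.31 (limma adjusted p = 0.185). Its arrays ran from −0.35 to 0.64 on slide type 1, with 5 of 12 above 0, and from −0.51 to 0.64 on slide type 2, with 3 of 12 above 0. Without treatment 2 the value on slide type 2 was −0.31 and passed on the negative side (limma adjusted p = 0.000732). In that setting 1226 of the 4075 genes passed on that side. The value on slide type 1 without treatment 2 was −0.12. The 2 probes of slide type 1 gave 0.11 and −0.04 and correlated at r = 0.938 across the 12 arrays.

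Cacybp, the Siah and Skp1 adaptor, had −0.11, 0.16 and −0.05 on slide type 1, with 5 of 12 arrays above 0 and a mean of −0.00 ± 0.14 (n = 3 treatments, limma adjusted p = 0.992). Its probe of slide type 2 had −0.31, 0.03 and −0.31, with 4 of 12 arrays above 0 and a mean of −0.20 ± 0.20. That value passed (limma adjusted p = 0.0254 in the fit of genes and 0.0433 in that of probes), where 31.9% of genes passed on the negative side; on slide type 1, 5.65% of genes passed on that side. The 2 channel orders of slide type 2 gave opposite readings in treatment 2, 0.75 in the forward order and −0.69 in the reverse order, and their means over treatments were 0.09 and −0.48. The call was lost without centring (−0.12), with centring on the probes of 1 symbol (−0.12), and in 6 other settings, and the sign turned in the forward order alone.

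**Figure D3:**
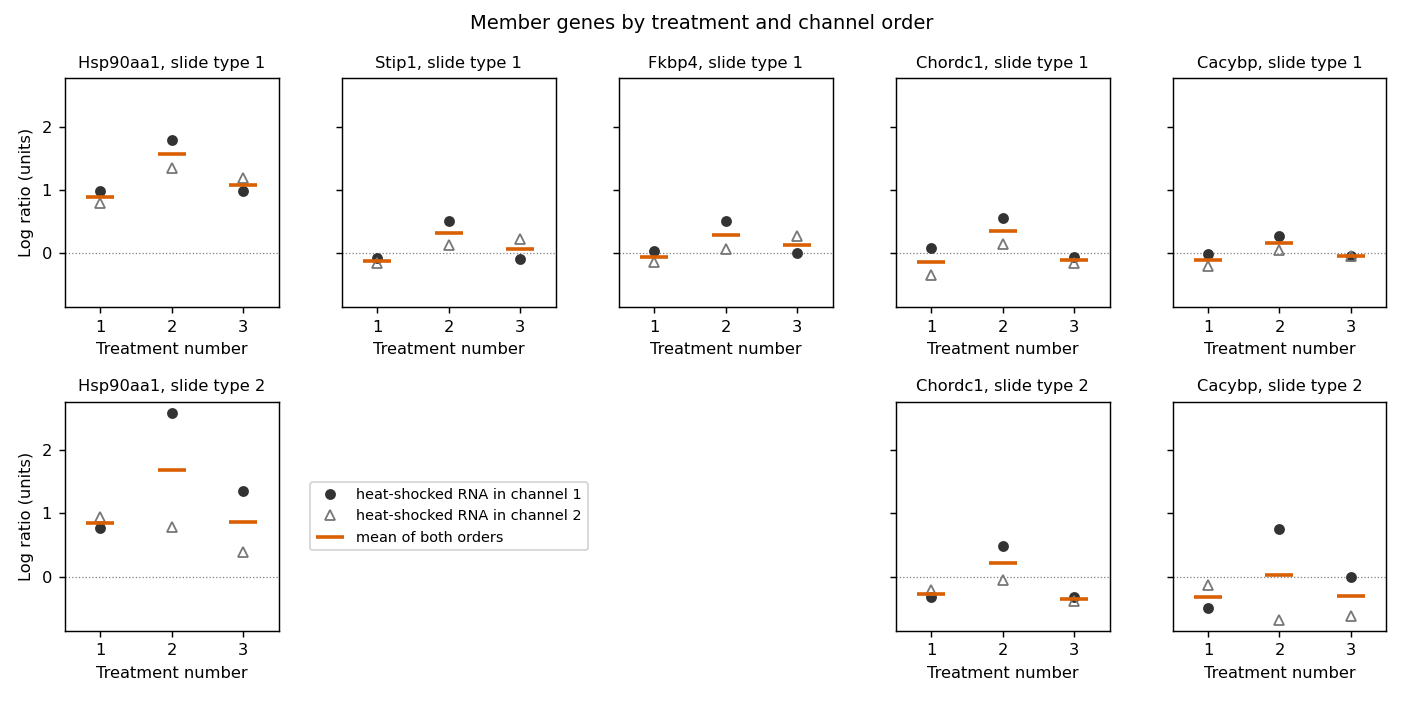
Log ratios (units, y axis) of each member gene in the 3 numbered treatments (x axis; the numbers are names, not an order), by slide type; filled circles are the forward order, open triangles the reverse order (each the mean of 2 arrays), and orange bars the mean of both orders. The orange bar of treatment 2 is the highest of the 3 in all 8 panels, and on slide type 2 the 2 orders of treatment 2 lie far apart for Hsp90aa1 (2.60 and 0.79) and Cacybp (0.75 and −0.69).

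The gap between Hsp90aa1 and its co-chaperones varied less over the treatments than Hsp90aa1 itself. Hsp90aa1 minus Stip1 was 1.01, 1.25 and 1.02 in treatments 1, 2 and 3, with a mean of 1.09 ± 0.13. Against Fkbp4 the mean gap was 1.06 ± 0.19, against Chordc1 1.15 ± 0.11 and against Cacybp 1.18 ± 0.21. The gaps of slide type 2 were 1.28 ± 0.18 against Chordc1 and 1.34 ± 0.28 against Cacybp. Each gap was positive on 12 of 12 arrays, and on slide type 1 the lowest Hsp90aa1 array, at 0.77, lay above the highest array of any co-chaperone, at 0.64. On slide type 2 the arrays overlap, with 0.37 as the lowest of Hsp90aa1 and 0.77 as the highest of Cacybp. With 3 treatments an exact two-sided sign-flip test cannot go below p = 0.25, and the gaps were not tested in another way. Among the co-chaperones of slide type 1 the 6 mean differences ran from −0.03 to 0.12. Only Fkbp4 minus Cacybp, 0.12 ± 0.06, had the same sign in all 3 treatments (11 of 12 arrays). Stip1 minus Cacybp, 0.09 ± 0.09, was positive in 2 of 3 treatments, and the other 4 differences were smaller than their SD. A ratio between probes is not a level: these gaps say that the log ratios differed, not how much transcript there was.

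As the mean of both channel orders, every member gene had its highest value in treatment 2 on each slide type where it was measured, and so did each of the 18 probes. Over all genes, treatment 2 was highest for 35.7% on slide type 1 and 19.8% on slide type 2. In the forward order alone treatment 2 was highest in 8 of the 8 gene values and 18 of the 18 probes (40.5% of all genes of slide type 1 and 48.4% of slide type 2). In the reverse order alone it was highest in 4 of 8 gene values and 9 of 18 probes (38.7% and 37.8% of all genes). There Stip1 and Fkbp4 stood higher in treatment 3 on slide type 1 (0.22 against 0.13, and 0.26 against 0.06). On slide type 2 the reverse order put Hsp90aa1 higher in treatment 1 (0.94 against 0.79) and Cacybp lowest in treatment 2 (−0.69). The excess of treatment 2 over the mean of the other treatments was 0.58 units for Hsp90aa1, 0.46 for Chordc1, 0.35 for Stip1, 0.25 for Fkbp4 and 0.24 for Cacybp on slide type 1. The median of all genes was 0.01 there, with 90% of genes between −0.23 and 0.22. The excess on slide type 2 was 0.83 for Hsp90aa1, 0.53 for Chordc1 and 0.34 for Cacybp, against a median of −0.08 and a range of −0.30 to 0.17. Treatment 2 is a single treatment, so its excess has no replicate.

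On single arrays the co-chaperone probes of slide type 1 had 31 of 32 values above 0 in treatment 2, 9 of 32 in treatment 1 and 15 of 32 in treatment 3. The counts of slide type 2 were 5, 1 and 1 of 8. By the centring, the median of all probes is 0 on every array. These values are repeat readings of the same few genes and not replicates. Some of the 31 were barely above 0 in the reverse order, such as 0.0024 for probe 4521 of Chordc1 and 0.0032 for probe 4421 of Stip1. Arrays of treatment 2 also spread more over all probes. Their SD was 0.592 to 0.788 on slide type 2, against 0.366 to 0.464 for the other treatments, and 0.376 to 0.408 on slide type 1, against 0.297 to 0.385. The part of that wider spread in the members' excess was not tested.

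The 4 co-chaperones also varied from array to array as Hsp90aa1 did. Over the 12 arrays of slide type 1 the correlation with Hsp90aa1 was r = 0.947 for Cacybp, 0.922 for Stip1, 0.877 for Fkbp4 and 0.874 for Chordc1, which rank 4, 5, 11 and 12 among 3837 genes. The median gene had 0.0767 and the 95th percentile was 0.605. The 12 arrays share 3 treatments and 2 channel orders, so they are not independent samples, and the values are a description. Within the forward order the 4 values ran from 0.928 to 0.99 (6 arrays), where the 95th percentile of all genes was 0.887. Within the reverse order the 4 values ran from 0.675 for Fkbp4 to 0.994 for Cacybp (6 arrays), where the 95th percentile was 0.675. Without treatment 2 they fell to 0.491 for Chordc1 (rank 960), 0.737 for Cacybp (rank 546) and 0.825 for Stip1 (rank 359), while Fkbp4 had 0.952 (rank 33); the 95th percentile was then 0.885. On this slide type the likeness of Chordc1, Cacybp and Stip1 to Hsp90aa1 was thus weaker without treatment 2. Each then lay below the 95th percentile but above the median gene, at −0.0376.

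On slide type 2 Cacybp had r = 0.956 with Hsp90aa1 (rank 3 of 4074) and Chordc1 0.853 (rank 85), where the median gene had 0.373 and the 95th percentile 0.815. Without treatment 2 these were 0.929 (rank 200) and 0.473 (rank 1526), where the median gene had 0.298 and the 95th percentile was 0.929. Within the forward order alone Cacybp had 0.992 (rank 108) and Chordc1 0.933 (rank 925), where the 95th percentile was 0.987. Within the reverse order alone Cacybp had 0.672 (rank 176) and Chordc1 0.723 (rank 127), where the 95th percentile was 0.648. The other genes at the head of slide type 1 were named after their values were seen. They were Hspa8, the constitutive Hsp70 (0.969), Hsp90b1, the Hsp90 of the endoplasmic reticulum (0.956), Calr, a lectin chaperone of the same compartment (0.949), Dnaja1, an Hsp40 (0.917), Hspd1-ps3, a pseudogene symbol of the mitochondrial chaperonin (0.907), Anapc7 (0.885), Dynll1 (0.883) and Hspd1 itself (0.883). Probes of Hspd1 and of its pseudogene may read the same transcript. These genes had means from −0.64 for Calr to 0.60 for Hspd1-ps3, so a shared array pattern did not come with a shared side. The 12 genes at the head of slide type 2, also named after their values were seen, were mostly of other kinds. Besides Cacybp they were Uspl1 (0.957), Dnaja1 (0.957), the lectin chaperone Canx (0.939), Cggbp1 (0.938), Snap23 (0.934), Orc4 (0.928), Zfp105 (0.927), Gmnn (0.925), AI987944 (0.925), Ccdc30 (0.924) and Tmem109 (0.924).

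**Figure D4:**
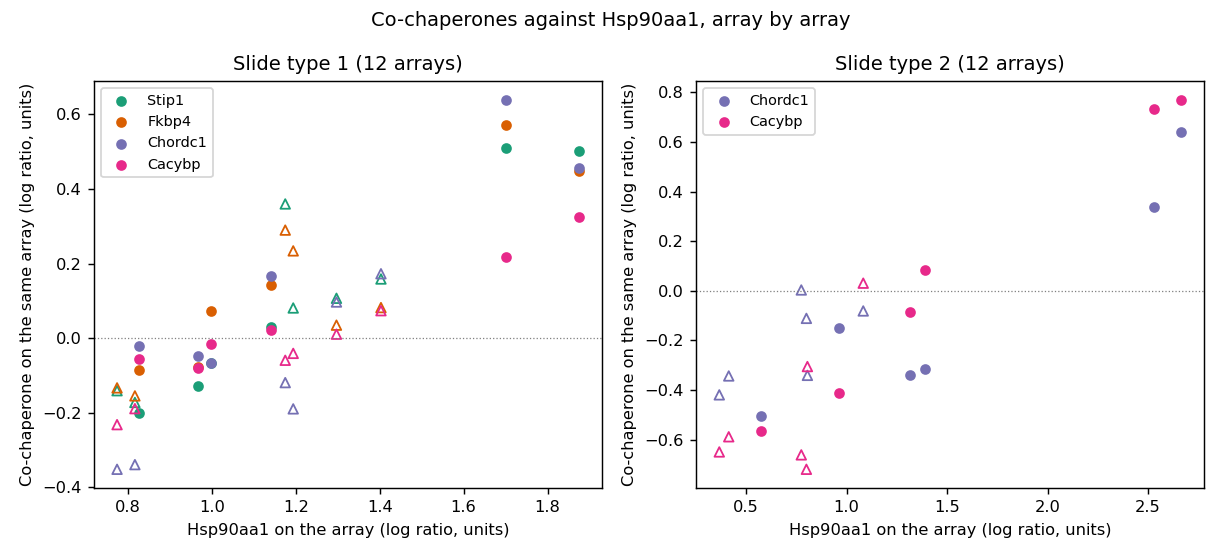
Co-chaperone log ratio (y axis, units) against the Hsp90aa1 log ratio (x axis, units) on the same array, for 12 arrays per slide type; filled circles are forward-order and open triangles reverse-order arrays. On slide type 1 the co-chaperone values run upward with Hsp90aa1, and the rightmost points are the 2 forward-order arrays of treatment 2.

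By size of the value rather than shape, the genes most like Hsp90aa1 over the 12 arrays were others. On slide type 1 they were Scfd1, a vesicle fusion protein (root mean square difference 0.214 units, mean 1.26), the receptor Il4ra (0.221), the galactosyltransferase B4galt7 (0.222), the histone demethylase Kdm2a (0.259) and Adnp, a homeobox protein (0.29). On slide type 2 they were Uspl1, a SUMO protease (0.335, mean 1.24), the Mediator subunit Med14 (0.432), the zinc finger genes Zfp12 (0.454) and Zfp9 (0.463), and Amotl2 (0.476). Each of these 10 values rests on 1 probe. Co-chaperones ranked 272 to 663 by this measure on slide type 1 and 975 and 1039 on slide type 2.

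Slide type 1 measured 2 other Hsp90 family genes and 12 other co-chaperones, and slide type 2 measured 0 and 13. Of these, 0 on slide type 1 and 1 on slide type 2 passed on the side of Hsp90aa1, where 5.73% and 18.5% of all genes did. Of the 2 family genes, Hsp90b1 passed on the negative side, as 5.65% of all genes of slide type 1 did. It had −0.49, −0.02 and −0.46 in treatments 1, 2 and 3 (mean −0.32 ± 0.26, limma adjusted p = 0.0419). The mitochondrial Trap1 had −0.09 ± 0.10 (limma adjusted p = 0.408). Hsp90ab1, the constitutive cytosolic form, was not analysed here. Treatment 2 was the highest of Hsp90b1 too. Its call was lost without treatment 1, without treatment 3 and under either other centring, at −0.02 without centring.

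Among 12 other co-chaperones measured on slide type 1, 0 passed on the positive side (also 0 at an unadjusted 0.05 threshold), 1 was negative and 11 did not pass, with a median of −0.02 against −0.04 for all genes. Of all genes of slide type 1, 5.73% were called positive and 5.65% negative, so these counts are near the background. The call was Ttc4, a TPR co-chaperone, with −0.39, −0.42 and −0.38 (mean −0.40 ± 0.02, limma adjusted p = 0.00114). Ahsa1, which speeds the ATPase of Hsp90, had −0.02 ± 0.12, the kinase adaptor Cdc37 −0.01 ± 0.16, and Ppid, the cyclophilin of steroid receptor complexes, −0.00 ± 0.11. Their values in the 3 treatments lay on both sides of 0.

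Slide type 2 measured 13: 1 passed as positive, 5 as negative and 7 did not pass, with a median of −0.09 against −0.05 for all genes. Flcn, the folliculin tumour suppressor, was the positive call, at 0.17 ± 0.09 (limma adjusted p = 0.0263). The negative calls were Tomm70a, the mitochondrial import receptor that docks Hsp90 (−0.35 ± 0.13), Nudcd2 (−0.34 ± 0.05), the phosphatase Ppp5c (−0.29 ± 0.11), the AAA ATPase Ruvbl2 (−0.24 ± 0.13) and Fkbp5, the close relative of Fkbp4 (−0.19 ± 0.08). Tomm70a had −0.02 ± 0.16 on slide type 1 and did not pass there. These shares stand against 18.5% of all genes called positive and 31.9% called negative on slide type 2.

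Among genes that act with Cacybp in ubiquitin ligation, Skp1, the adaptor of SCF ligases, lay between −1.09 and −0.80 in the 3 treatments of slide type 1 (mean −0.96 ± 0.15, limma adjusted p = 1.62e-05), and 0% of genes there had a lower mean. This value rests on 1 probe, and 5.65% of all genes there passed on the negative side. Ctnnb1, the beta-catenin that this complex can target, had −0.17 ± 0.11 and Tbl1x −0.08 ± 0.08, and neither passed. Of the 3 on slide type 2, 0 passed by limma, and 0 at an unadjusted 0.05 threshold, where 18.5% of all genes were called positive and 31.9% negative. Siah1a, Siah2 and the Cacybp ligand S100a6 had 0.10, 0.09 and 0.06.

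Of 14 Hsp90 client genes on slide type 1, 1 was called positive, 2 negative and 11 did not pass (median −0.07), where 5.73% of all genes were called positive and 5.65% negative. Irak1, an interleukin-1 receptor kinase, had 0.90, 1.03 and 1.05 over 2 probes (mean 0.99 ± 0.08, limma adjusted p = 5.79e-06), but 0.06 ± 0.05 on its probe of slide type 2. The survival kinase Akt1 had −0.41 ± 0.04 and the mitotic kinase Plk1 −0.25 ± 0.16. Of 16 on slide type 2, 2 were called positive, 5 negative and 9 did not pass (median −0.08), where the shares of all genes were 18.5% and 31.9%. Braf, a Raf kinase, had 0.25 ± 0.20 there and 0.00 ± 0.06 on slide type 1, and Wee1 had 0.17 ± 0.02. The negative calls were Akt2 (−0.37 ± 0.08), Cdk4 (−0.29 ± 0.00), Cdk6 (−0.28 ± 0.14), Ulk1 (−0.25 ± 0.13) and Ikbkb (−0.25 ± 0.13). Of the heat shock factors, Hsf5 was measured, on slide type 2, and passed on the positive side at 0.16 ± 0.06 (limma adjusted p = 0.0325).

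Counts by side depend on where 0 is set. Over all genes, 220 were called positive and 217 negative on slide type 1, but 263 and 5 without centring and 254 and 119 with centring on probes of 1 symbol. The 753 and 1299 of slide type 2 became 76 and 65 without centring and 1249 and 861 with centring on probes of 1 symbol. For probes, the 844 and 391 of slide type 1 became 1210 and 14, and 996 and 221, and the 2219 and 1877 of slide type 2 became 422 and 135, and 3283 and 1205. Without centring the median of all probes moved from −0.01 to 0.29 on slide type 1. Hsp90aa1 kept its side and its call in both settings on both slide types, at 1.49 and 1.22 without centring. Without centring Stip1, Fkbp4, Chordc1 and Cacybp had 0.39, 0.42, 0.34 and 0.30 on slide type 1 and did not pass, close to the moved median.

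The calls on the other lists and markers depend on the same choice more than Hsp90aa1 does. Of 7 such calls on slide type 1, Skp1 and Irak1 passed without centring, at −0.66 and 1.30, and the other 5 did not; Plk1 and Tubb3 then stood above 0, at 0.05 and 0.09. Of 15 on slide type 2, 0 passed by limma without centring, where 141 genes in all did, and each kept its side; with centring on probes of 1 symbol 13 of them passed. Leaving out a treatment ended the call of Flcn, Wee1 and Hsf5 (treatments 1 and 3), Fkbp5 (treatment 3), and Plk1, Tubb3 and Krt18 (treatments 1 and 2), besides Hsp90b1. Channel orders gave opposite sides for Fkbp5 (0.22 forward and −0.59 reverse), Hsf5 (−0.34 and 0.65), Wee1 (−0.11 and 0.44) and Cdk4 (0.03 and −0.61).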

How the data were processed

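The deposited values are the authors' processed log ratios, 1 table per slide type, handled as a score, since no unit is stated; the sources used here give no log base, numerator, background correction or normalization. Both tables held 7680 probes and 12 arrays, with 0 missing values and 0 columns left unmapped. Intensities were not used, so dim or saturated spots were not set apart. Symbols are those of the platform annotation; 4749 probes of slide type 1 carried 1 symbol, 227 several and 2704 none, and 4935, 275 and 2470 on slide type 2.

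Arrays were centred and turned as described, averaged within each channel order and then over both orders, to 1 value per treatment. limma 3.58.1 in R 4.3.3 (lmFit, eBayes, intercept) tested the 3 treatments; p-values were adjusted after Benjamini and Hochberg per slide type, over its whole set of probes or of genes, with 0.05 as the threshold, and a gene is the mean of its probes with that 1 symbol. The difference between channel orders was tested the same way. The members and lists were chosen with earlier results of these data known. Of each list up to 6 values with the smallest p, further calls and a few co-chaperones picked for their function are given; other genes came from the root mean square rule, or, where said, were picked after their values were seen.

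The test was checked on simulated data with 200 changed probes of 7680: 61 of 100 changes of 0.5 units and 95 of 100 of 1 unit were recovered on slide type 1, with 5 of 7480 unchanged probes called, and 73, 99 and 3 on slide type 2. On the measured arrays 1235 probes of slide type 1 and 4096 of slide type 2 were called, many more than the 200 changed here. How this recovery carries over to the measured arrays was not tested. Precision is limited by the number of treatments. Figures were drawn with matplotlib 3.10.9.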

Additional observations from a re-analysis of the deposited data

How the results depend on the processing

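Precision rests on 3 treatments per slide type, and no intensity was at hand to mark dim or saturated spots. Hsp90aa1 kept its side in all 15 settings tried on each slide type (0.99 to 1.49 on slide type 1 and 0.71 to 1.57 on slide type 2). It lost its call with each gene's own spread, at 1.18 and 1.14, and on slide type 2 in the reverse order alone, at 0.71. The latter loss held in the fit of genes but not in that of probes. Fkbp4 kept its side as a gene, uncalled, in its 15 settings; the cause of the other changes was not tested.

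Cacybp on slide type 1, uncalled near 0, turned to 0.30 without centring, 0.041 with centring on probes of 1 symbol, 0.069 in the forward order and 0.0010 without the suffixed arrays; leaving out a treatment gave −0.081 to 0.054. On slide type 2 it lost its call without centring (−0.12), with centring on probes of 1 symbol (−0.12), in the reverse order (−0.48), without the suffixed arrays (−0.20), with its own spread and against 0.5 units (−0.20 in both), and turned to 0.087 in the forward order; without 1 treatment it had −0.31 to −0.14. Chordc1 on slide type 1 turned to −0.12 in the reverse order and ran from −0.12 to 0.12 without 1 treatment, and on slide type 2 from −0.31, now called, to −0.025. Stip1 ran from −0.030 to 0.19. Among single probes, 1623 of Chordc1 turned to −0.042 in the reverse order (−0.033 to 0.18 without 1 treatment), and 4521 of Chordc1 to 0.26 without centring and 0.11 in the forward order (−0.21 to 0.052). Probe 7136 of Fkbp4 ran from −0.0025 to 0.20, and probes 4421 and 999 of Stip1 from −0.016 to 0.20 and −0.043 to 0.18.

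Counts of all genes called moved on slide type 1 from 437 to 268 without centring, 839 in the forward and 194 in the reverse order, 216 with the suffixed arrays only, 2 with own spreads and 20 against 0.5 units. With 12 arrays and the treatment as replicate block the count was 762, and the block changed no member's call. Leaving out a treatment gave 178 to 440 genes. The 2052 genes of slide type 2 became 141, 50, 24, 7 and 43 without centring, in the forward order, in the reverse order, with own spreads and against 0.5 units, and 1227 to 2209 without 1 treatment. For probes, the 1235 of slide type 1 became 2402 in the forward and 776 in the reverse order, 797 with suffixed arrays only, 3 with own spreads and 158 against 0.5 units. The 4096 of slide type 2 became 557 without centring, 226 and 700 in the forward and reverse orders, 104 and 146, and 2315 to 4920 without 1 treatment. Probes differing between channel orders were 4081 and 0 without centring, and 541 to 2656 and 0 to 1362 without 1 treatment, on slide types 1 and 2.

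Of the 15 member probes of slide type 1, 0 were called with own spreads, and 9 differed between orders without centring and 0 to 5 without 1 treatment. Of the 3 on slide type 2, 1 was called in 6 settings (both centrings, each order, no suffixed arrays, against 0.5 units) and 0 with own spreads, against 2 in the main setting; without 1 treatment 1 to 3 were called and 0 to 1 differed between orders.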
